A study of Mus musculus with 24 samples.

Results

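The Fos family comprises the 4 genes Fos, Fosb, Fosl1 and Fosl2, taken here as the rows of a normalised expression table that carry these symbols, 4 of 24273 genes in all. Messenger RNA (mRNA) was measured by RNA-seq in BMDMs, that is, bone marrow-derived macrophages cultured from mouse marrow. The control group was labelled LysM-Cre and the knockout group FosKO, on a C57BL/6 background. FosKO mice carried a pair of floxed Fos alleles, and both groups carried LysM-Cre, a Cre recombinase gene at the lysozyme locus Lyz2 that is active in myeloid cells. The study's text gives the controls 1 floxed Fos allele, which the design text does not mention. Cells were left unstimulated (0 h) or received 100 ng/ml LPS, a bacterial cell wall lipid sensed by TLR4, during 0.5, 1 or 2 h. There were 3 libraries for each of the 8 groups. The labels do not say that libraries of a group came from separate mice, so a p-value measures only the spread between these libraries.

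FOS proteins are leucine zipper transcription factors that cannot pair with each other and bind DNA as dimers with JUN proteins, a complex called AP-1. Fos and Fosb are immediate early genes, switched on within minutes of a signal through MAP kinases and the factors SRF, ELK and CREB, and their mRNA is quickly degraded. Fosl1 (the gene for FRA-1) and Fosl2 (the gene for FRA-2) encode proteins without the strong activation domain of FOS and FOSB, and both are known as later members of the response and as targets of AP-1 itself.

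The 250 bases upstream of the start sites of Fos, Fosb and Fosl2 are shown as a description, and a link between their letters and the timing of a response was not tested. They come from the RefSeq promoter table (build GRCm38.p6), in which 3 of the 4 members had an entry, and capitals mark motif matches. The Fos window is chr12:85473640-85473889 on the + strand, the Fosb window chr7:19310046-19310295 on the - strand, and the Fosl2 window chr5:32136222-32136471 on the + strand. All are written 5′ to 3′ on the strand of the gene.
Fos: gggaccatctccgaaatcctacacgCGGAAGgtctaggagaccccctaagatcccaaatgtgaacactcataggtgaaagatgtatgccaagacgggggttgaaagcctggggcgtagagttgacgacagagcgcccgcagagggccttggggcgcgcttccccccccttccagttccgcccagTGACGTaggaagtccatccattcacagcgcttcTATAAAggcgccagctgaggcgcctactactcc
Fosb: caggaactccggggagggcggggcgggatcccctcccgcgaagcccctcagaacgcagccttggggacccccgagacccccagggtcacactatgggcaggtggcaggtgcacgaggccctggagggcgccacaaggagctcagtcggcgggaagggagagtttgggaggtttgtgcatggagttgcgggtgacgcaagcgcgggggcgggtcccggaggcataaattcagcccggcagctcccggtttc
Fosl2: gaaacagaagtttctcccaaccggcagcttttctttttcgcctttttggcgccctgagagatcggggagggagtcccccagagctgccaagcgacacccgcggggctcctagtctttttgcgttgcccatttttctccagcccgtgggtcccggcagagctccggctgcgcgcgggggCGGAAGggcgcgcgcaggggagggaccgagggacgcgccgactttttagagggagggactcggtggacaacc
Both strands were searched for TGACGT (a core of the CRE bound by CREB), TGANTCA (the AP-1 site), the CArG box (bound by SRF), CGGAAG (an ETS site of the kind ELK proteins bind) and TATAAA. The motifs were chosen after the sequences were seen, and no match overlapped another. The Fos window held TGACGT at -66 to -61, CGGAAG at -225 to -220 and TATAAA at -33 to -28, counted from the start site. The Fosl2 window held CGGAAG at -72 to -67, and none of the letters searched was in the Fosb window. Among 32851 promoter windows of this length, 6.47% held TGACGT, 6.75% TGANTCA, 1.47% a CArG box, 13.59% CGGAAG and 12.37% TATAAA. A match is a description of the letters and not evidence of binding. Bases farther upstream were not searched, so a motif missing from a window, such as the CArG box, may lie outside it. The RefSeq start site used for Fosl2 lies 671 bases inside the gene as GENCODE annotates it.

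All 4 members are protein-coding genes (GRCm38, GENCODE). Fos (ENSMUSG00000021250) lies on chromosome 12 from 85473890 to 85477273, + strand. Fosb (ENSMUSG00000003545) lies on chromosome 7 from 19302696 to 19310051, - strand. Fosl1 (ENSMUSG00000024912) lies on chromosome 19 from 5447547 to 5455946, + strand, and overlaps Ccdc85b on the opposite strand (5453180 to 5457894). Fosl2 (ENSMUSG00000029135) lies on chromosome 5 from 32135801 to 32157842, + strand. The study's methods state strand-specific libraries. Every value below belongs to a whole gene, so exons, introns and UTRs are not separated.

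Values are log2 values that the authors normalised, and a difference of 1 is a doubling. Only a typical yield of reads is stated in the study's methods. Without counts, read depth per library remains unknown. Within a group, r across all genes was 0.9987 to 0.9996, a value across genes, which are no replicates. In every library all 8 macrophage markers passed the filter on low values, with a summed level between 17.17 and 17.59, whereas the B cell and T cell receptor markers Cd79a, Ms4a1, Pax5, Cd3e, Cd3d and Trac did not pass it. The endothelial list, which Kdr dominates, summed to 8.37 to 8.75 in LysM-Cre libraries and 8.98 to 10.02 in FosKO libraries, and its part in the results was not tested. The T cell list (1 of 5 passed, Cd4) summed to 7.60 to 7.91 and 8.01 to 8.45, and the neutrophil list (1 of 5 in the table passed, Ltf, with Ly6g and Elane at the floor near -2.2) to 3.93 to 5.09 and 3.82 to 4.26, and their part was not tested either. By time, neutrophil sums overlapped at 0 h. They lay lower in FosKO without overlap at 0.5 h (4.04 to 4.25 against 4.50 to 4.76), 1 h (4.09 to 4.26 against 4.68 to 4.95) and 2 h (3.95 to 4.12 against 4.70 to 5.09). The dendritic cell list (3 of 5 passed, Zbtb46, Ccr7 and Xcr1) summed to 5.23 to 5.30 in LysM-Cre and 5.23 to 5.56 in FosKO at 0 h, to 5.31 to 5.35 and 5.41 to 5.91 at 0.5 h, to 5.52 to 5.82 and 5.83 to 6.05 at 1 h and to 6.96 to 7.05 and 6.60 to 6.64 at 2 h, so that FosKO lay higher without overlap at 0.5 and 1 h and lower at 2 h. Its part was not tested, and the fibroblast list (2 of 4 passed, Col1a1 and Col1a2) summed to 3.85 to 4.82 and 3.78 to 4.43 over all times, also not tested. Fibroblast sums lay lower in FosKO without overlap at 0 h (3.82 to 4.22 against 4.42 to 4.73) and 1 h (3.78 to 4.30 against 4.33 to 4.82), and overlapped at 0.5 and 2 h. Lyz2, the locus that holds Cre, was 4.89 to 5.17 higher in FosKO at the 4 times. Every FosKO minus LysM-Cre difference below is thus also one between groups that differ in Lyz2 mRNA. A part of that locus in the results cannot be told apart from the Fos genotype and was not tested. A set of 5 libraries, all at 0.5 or 1 h and from both genotypes, had low 18S ribosomal RNA (Rn18s-rs5 at 16.65 to 17.00, against 18.57 to 19.39 in the other 19), and values within each set are given where they differ.

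Fos, the founding member and the gene meant to be deleted, was measured first as a check of the labels. In LysM-Cre BMDMs, Fos stood at 11.17, 11.07 and 11.10 before LPS (0 h). It rose to 13.43, 13.57 and 13.56 within 0.5 h, returned to 11.02, 11.07 and 11.34 by 1 h, and fell to 9.61, 9.42 and 9.52 by 2 h. The mRNA thus peaked at 0.5 h, overlapped its unstimulated range at 1 h and ended below it. Libraries labelled FosKO held Fos at 12.72, 12.41 and 12.67 (0 h), then 12.81, 12.64 and 12.79 (0.5 h), then 12.86, 12.67 and 12.82 (1 h) and last 12.93, 12.67 and 12.81 (2 h). These 12 libraries spanned 12.41 to 12.93 and lay between the peak and the unstimulated level of the control at every time. The level of Fos mRNA therefore goes against the label FosKO at 0, 1 and 2 h. The sources used here do not give which exons were floxed, and a value for the whole gene cannot tell a transcript that lacks them from an intact one. In what follows FosKO stands for the libraries so labelled. In bulk RNA, more cells that express a gene and more mRNA per cell cannot be told apart.

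FosKO minus LysM-Cre, Fos differed by 1.49 before LPS (SE 0.09, adjusted p = 1.15e-10) and by -0.77 (adjusted p = 5.93e-07), 1.64 (adjusted p = 1.89e-11) and 3.29 (adjusted p = 2.42e-16) after 0.5, 1 and 2 h (n = 3 libraries per group throughout). Groups did not overlap at any of the 4 times. At 2 h the libraries labelled FosKO held 9.76 times the Fos level of the control, the 7th largest absolute difference of 13901 genes tested, and at 0.5 h 0.585 times. All 24 settings that left out 1 library kept each of these calls.

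The LPS response of Fos was large in LysM-Cre, whereas no response was called in FosKO. In LysM-Cre it was 2.41 at 0.5 h (adjusted p = 1.61e-14), 0.03 at 1 h (adjusted p = 0.821) and -1.60 at 2 h (adjusted p = 1.74e-12). FosKO libraries gave 0.15 (95% interval -0.04 to 0.33), 0.18 (0.00 to 0.37) and 0.20 (0.02 to 0.39), with adjusted p = 0.396, 0.122 and 0.054, and the stimulated libraries overlapped the unstimulated ones each time. Without FosKO 0 h replicate 2 the values at 0.5, 1 and 2 h were 0.05, 0.09 and 0.11, none called. Without FosKO 2 h replicate 2 the 2 h value was 0.27 and was called (adjusted p = 0.0212). With the replicate number within each genotype as a block, the values at 1 and 2 h passed the threshold (adjusted p = 0.0265 and 0.00842). Under quantile normalisation the 2 h value was -0.15 (adjusted p = 0.144), so a small rise in FosKO depends on the setting. The 1 h value in LysM-Cre also changed sign with the setting (-0.08 under quantile normalisation) and was called under none. The response itself differed between the genotypes by -2.26 at 0.5 h (SE 0.12, adjusted p = 1.38e-09), the 3rd largest absolute value of all genes tested, and by 1.80 at 2 h (adjusted p = 6.15e-09), whereas at 1 h the difference was 0.15 (95% interval -0.11 to 0.41).

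**Figure D1:**
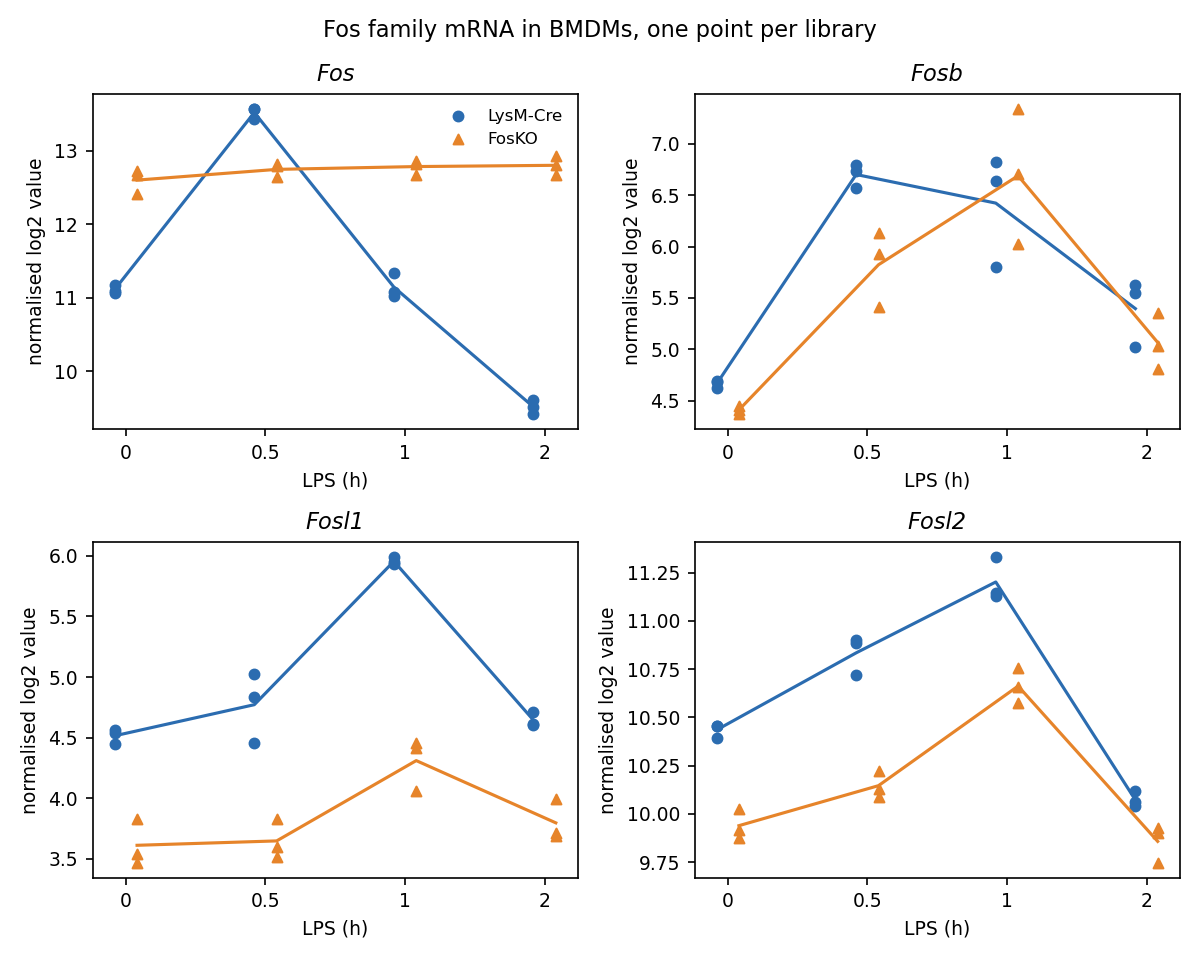
Normalised log2 value (y axis) of Fos, Fosb, Fosl1 and Fosl2 by hours of LPS (x axis, evenly spaced), 1 point per library, LysM-Cre as circles and FosKO as triangles, lines through the group means, each gene on its own scale. Fos peaked at 0.5 h in LysM-Cre and stayed between 12.41 and 12.93 in FosKO, while Fosl1 and Fosl2 were lower in FosKO at each time.

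Fosl1, which encodes FRA-1, was lower in libraries labelled FosKO at every time. The LysM-Cre libraries gave 4.56, 4.45 and 4.54 before LPS, then 4.83, 4.46 and 5.02 (0.5 h), 5.93, 5.95 and 5.99 (1 h) and 4.61, 4.61 and 4.71 (2 h). The FosKO libraries gave 3.83, 3.47 and 3.54 before LPS, then 3.83, 3.60 and 3.52 (0.5 h), 4.42, 4.06 and 4.46 (1 h) and 3.99, 3.69 and 3.72 (2 h). The groups did not overlap at any time, and the FosKO libraries at 1 h, their peak, reached 4.46 at most, within or below the unstimulated range of the control (4.45 to 4.56). FosKO minus LysM-Cre, Fosl1 differed by -0.90 (SE 0.14, adjusted p = 2.72e-05) before LPS and by -1.12 (adjusted p = 1.35e-06), -1.64 (adjusted p = 1.33e-08) and -0.85 (adjusted p = 3.56e-05) after 0.5, 1 and 2 h. At 1 h FosKO thus held 0.32 times the control level. Fosl1 values were low in FosKO (group means of 12.2 to 19.8 on the linear scale), and a regularised log, if the table holds one, understates differences of such genes. The overlapping gene Ccdc85b was lower in FosKO by 0.51, 0.53, 0.26 and 0.49 at the 4 times, not called at 1 h.

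Fosl1 rose later than Fos. In LysM-Cre its response was 0.26 at 0.5 h (adjusted p = 0.362), 1.44 at 1 h (adjusted p = 3.25e-08) and 0.13 at 2 h (adjusted p = 0.44), which is a peak at 1 h with a step of 1.18 into it (adjusted p = 8.28e-07) and of -1.31 out of it (adjusted p = 7.01e-08). In FosKO the response had the same timing, with 0.04 at 0.5 h, 0.70 at 1 h (adjusted p = 0.000398) and 0.19 at 2 h. The difference between the genotypes in the 1 h response was -0.74 (SE 0.19, 95% interval -1.14 to -0.34), which missed the threshold over all genes (limma, adjusted p = 0.0752). It passed with the replicate number as a block (adjusted p = 0.0241) and without replicate 2 of LysM-Cre at 0.5 h (adjusted p = 0.0359). The step from 1 to 2 h, a comparison added after the values were seen, was smaller in FosKO by 0.80 (SE 0.19, adjusted p = 0.0094), a call that was lost in the high 18S libraries alone (0.82, adjusted p = 0.0664).

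Fosl2, which encodes FRA-2, was the second most abundant member per kb and was lower in FosKO at each time, by less than Fosl1. LysM-Cre values were 10.39, 10.46 and 10.45 before LPS, then 10.72, 10.90 and 10.89 (0.5 h), 11.13, 11.14 and 11.33 (1 h) and 10.04, 10.12 and 10.06 (2 h). FosKO values were 10.02, 9.92 and 9.88 before LPS, then 10.22, 10.13 and 10.09 (0.5 h), 10.66, 10.57 and 10.75 (1 h) and 9.92, 9.75 and 9.90 (2 h). Every FosKO library was below every LysM-Cre library of its time, with the narrowest gap at 2 h. The differences were -0.50 (SE 0.06, adjusted p = 2.93e-06), -0.69 (adjusted p = 3.13e-08), -0.54 (adjusted p = 9.49e-07) and -0.21 (adjusted p = 0.00771) at 0, 0.5, 1 and 2 h. The call at 2 h was lost without replicate 2 of FosKO at 2 h (-0.16, adjusted p = 0.0597). At 0.5 h FosKO held 0.621 times the control level.

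Fosl2 climbed to 1 h in both genotypes and then fell. Its response in LysM-Cre was 0.40 at 0.5 h (adjusted p = 0.000145), 0.77 at 1 h (adjusted p = 2.73e-09) and -0.36 at 2 h (adjusted p = 3.48e-05), below the unstimulated level. The FosKO response was 0.21 at 0.5 h (adjusted p = 0.054, groups not overlapping, and adjusted p = 0.0141 with the replicate number within genotype as a block), 0.72 at 1 h (adjusted p = 7.63e-09) and -0.08 at 2 h (adjusted p = 0.268). The response at 1 h differed between the genotypes by -0.04 (95% interval -0.23 to 0.14), an interval that holds only small differences beside the response itself. At 2 h the responses differed by 0.28 (SE 0.09, adjusted p = 0.0351), a call that was lost when any 1 of 8 of the 12 libraries involved was left out (adjusted p between 0.0657 and 0.0936). These were LysM-Cre 0 h replicates 2 and 3, LysM-Cre 2 h replicates 1 and 3, FosKO 0 h replicates 2 and 3, and FosKO 2 h replicates 1 and 3, without which the value was between 0.25 and 0.28. The fall from 1 to 2 h was smaller in FosKO by 0.32 (adjusted p = 0.0188), and in the high 18S libraries alone by 0.25 (adjusted p = 0.216). Without LysM-Cre 1 h replicate 3, FosKO 1 h replicate 2 or FosKO 2 h replicate 1 its adjusted p was 0.0611, 0.0578 and 0.0578.

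Fosb encodes the FOS paralogue FOSB and was the member with the widest spread between replicates. Its LysM-Cre values were 4.62, 4.69 and 4.68 before LPS, then 6.74, 6.57 and 6.80 (0.5 h), 6.64, 6.83 and 5.80 (1 h) and 5.55, 5.62 and 5.02 (2 h). Its FosKO values were 4.37, 4.41 and 4.45 before LPS, then 6.13, 5.92 and 5.42 (0.5 h), 7.34, 6.70 and 6.02 (1 h) and 4.81, 5.36 and 5.03 (2 h). FosKO lay below the control without overlap at 0 and 0.5 h, and the groups overlapped at 1 and 2 h. The SD within a group pooled over the 8 groups was 0.365, against 0.118 for Fos, 0.169 for Fosl1 and 0.0816 for Fosl2. Among genes of similar mean, 8.55% had a larger SD than Fosb, 7.08% than Fos, 59.2% than Fosl1 and 13.4% than Fosl2, so that for its level Fos was about as variable as Fosb. Replicate 3 was the lowest of the 3 at 1 h in both genotypes.

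FosKO minus LysM-Cre, Fosb differed by -0.88 at 0.5 h (SE 0.27, adjusted p = 0.014), or 0.544 times the control level, and by -0.25 at 0 h (adjusted p = 0.523), 0.27 at 1 h (adjusted p = 0.497) and -0.33 at 2 h (adjusted p = 0.359). The call at 0.5 h was lost without replicate 3 of FosKO at 0.5 h (-0.67, adjusted p = 0.0884). The SE comes from the spread of Fosb over all groups, and the 0 h groups, with an SD of 0.04 each, were much tighter than it. At 1 h the sign of the difference depended on the 18S set: -0.27 among high libraries (2 FosKO and 1 LysM-Cre) and 1.03 among low ones (1 FosKO and 2 LysM-Cre). At 0.5 h it was -0.98 among the high (n = 2 each) and -0.67 among the low (n = 1 each).

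The response of Fosb to LPS was 2.04 at 0.5 h (adjusted p = 2.24e-05), 1.76 at 1 h (adjusted p = 2.63e-05) and 0.73 at 2 h (adjusted p = 0.0255) in LysM-Cre. In FosKO it was 1.41 (adjusted p = 0.00198), 2.28 (adjusted p = 1.05e-06) and 0.66 (adjusted p = 0.0429). Fosb mRNA rose in both genotypes at each time. The highest mean was at 0.5 h in LysM-Cre (6.70 ± 0.12, SD, n = 3) and at 1 h in FosKO (6.69 ± 0.66), and these peak levels differed by less than their spread. From 0.5 to 1 h the difference of Fosb was -0.28 in LysM-Cre (adjusted p = 0.525), and it became 0.03 without LysM-Cre 1 h replicate 3 (adjusted p = 0.959), so the time of the highest control mean rests on that library. In FosKO each library at 1 h was above the same-numbered one at 0.5 h, although the groups overlapped. The step there was 0.87 (adjusted p = 0.022). That call was lost without FosKO 0.5 h replicate 3 (0.66, adjusted p = 0.119), FosKO 1 h replicate 1 (0.54, adjusted p = 0.155) or FosKO 1 h replicate 2 (0.86, adjusted p = 0.0521), and in a fit of these 2 groups alone (adjusted p = 0.138). The test of the difference itself, added after the values were seen, gave a step larger by 1.14 in FosKO (SE 0.39, 95% interval 0.34 to 1.95), which did not pass over all genes (limma, adjusted p = 0.223). A later peak of Fosb in FosKO is thus not called at this spread.

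The 2 h responses of Fosb rested on single libraries. In LysM-Cre the call was lost without replicate 1 or 3 at 0 h (adjusted p = 0.0604 and 0.0516) or replicate 1 or 2 at 2 h (0.0798 and 0.0954). In FosKO it was lost without any of the 3 replicates at 0 h (0.0888, 0.0813 and 0.0694) or without replicate 2 or 3 at 2 h (0.16 and 0.0735). From 1 to 2 h Fosb fell by 1.03 in LysM-Cre (adjusted p = 0.0034) and by 1.62 in FosKO (adjusted p = 3.85e-05).

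**Figure D2:**
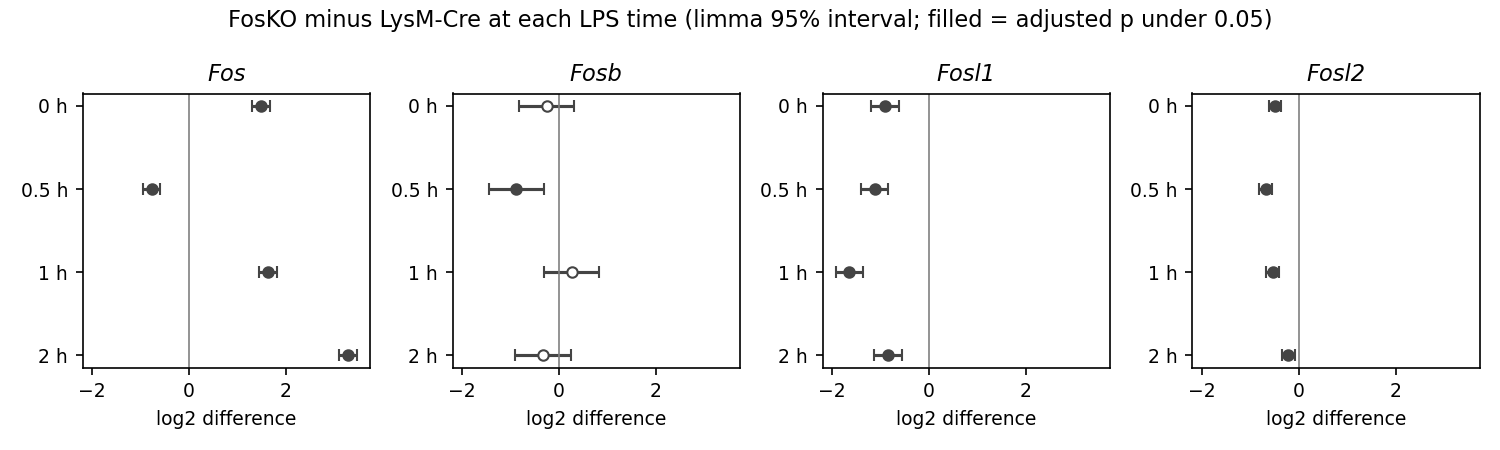
Log2 difference FosKO minus LysM-Cre (x axis) of each member at 0, 0.5, 1 and 2 h of LPS (y axis), with the 95% interval from limma, filled where the adjusted p was under 0.05. Fos was higher in FosKO at 0, 1 and 2 h and lower at 0.5 h, Fosl1 and Fosl2 were lower at all 4 times, and Fosb at 0.5 h.

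Counted over the family, 3 of the 4 members differed between the genotypes at 0 h, where 35.4% of all tested genes were called, 4 of 4 at 0.5 h (40.9% of all genes), 3 of 4 at 1 h (33.9%) and 3 of 4 at 2 h (44.6%). In LysM-Cre, 3 of 4 members were called after 0.5 h of LPS against 7.24% of all genes, 3 of 4 after 1 h (35.8%) and 3 of 4 after 2 h (60.8%), the last being Fosb higher with Fos and Fosl2 lower. In FosKO, 1 of 4 was called after 0.5 h (Fosb, against 5.92% of all genes) and 3 of 4 after 1 h (32.6%). After 2 h it was 1 of 4 (Fosb, 62.1%). The Fosb calls at 2 h in both genotypes rested on single libraries. With the replicate number within genotype as a block, Fosl2 at 0.5 h and Fos at 1 and 2 h were called in FosKO too. The share of all genes called under that block is not given here, so these calls are not added to the counts. Between 0.5 and 1 h, 3 of 4 members moved in LysM-Cre (26.8% of all genes), with Fos falling by 2.37 while Fosl1 rose by 1.18 and Fosl2 rose by 0.37, and 3 of 4 in FosKO (27.5%). Between 1 and 2 h all 4 members fell in LysM-Cre (52.3%), Fos by a step of -1.63 and Fosl2 by one of -1.13, and 3 of 4 fell in FosKO (50.7%), where the step of Fos was 0.02, of Fosl1 -0.51 and of Fosl2 -0.80.

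The LPS response itself differed between the genotypes for 1 of 4 members at 0.5 h (Fos, against 0.115% of all genes). It differed for 0 of 4 at 1 h (1.22% of all genes) and for 2 of 4 at 2 h (Fos and Fosl2, 15%). The steps differed for 1 of 4 members from 0.5 to 1 h (Fos, by 2.41, adjusted p = 1.36e-10; 1.06% of all genes) and for 3 of 4 from 1 to 2 h (Fos, by 1.65, adjusted p = 7.3e-08, with Fosl1 and Fosl2; 11.6%). The intervals for Fosb were wide, -1.43 to 0.18, -0.29 to 1.33 and -0.88 to 0.73 for the responses at 0.5, 1 and 2 h, too wide to call the responses of this gene equal.

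**Figure D3:**
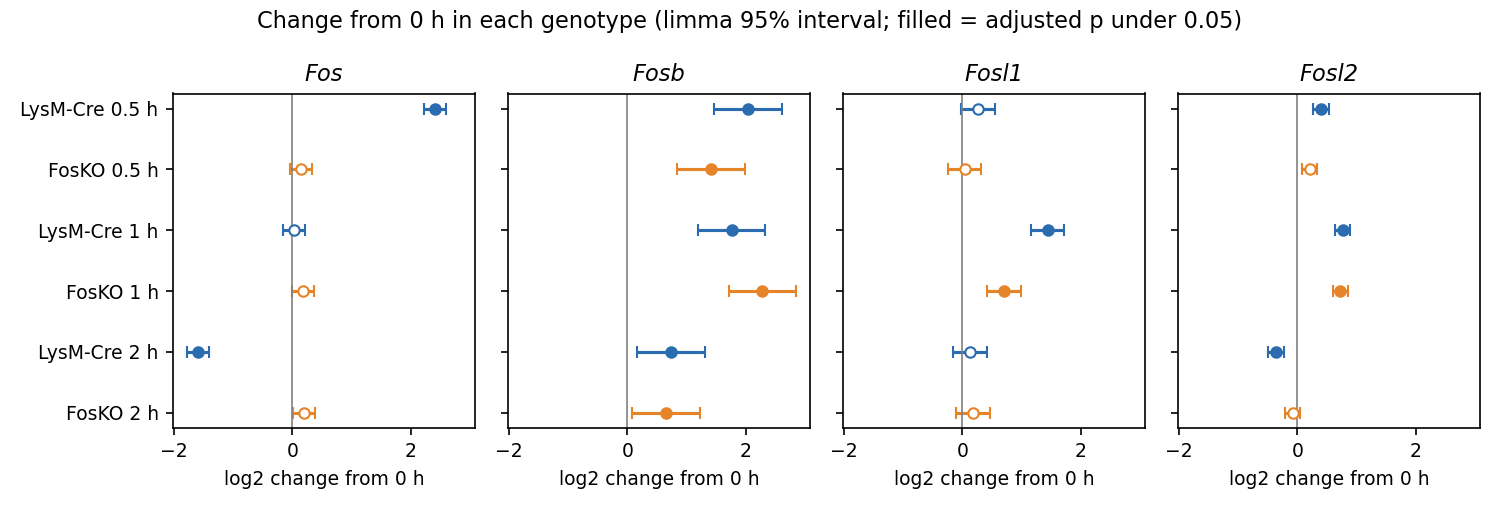
Log2 change from 0 h (x axis) of each member after 0.5, 1 and 2 h of LPS in LysM-Cre and FosKO (y axis, blue and orange), with the 95% interval from limma, filled where the adjusted p was under 0.05. Fos changed by 2.41 and -1.60 at 0.5 and 2 h in LysM-Cre, its FosKO values of 0.15 to 0.20 were not called, and Fosb rose in both.

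To compare levels between genes, each value was divided by the length of the gene's exons in kb on the linear scale. Per kb, Fos was highest and Fosl2 second in all 24 libraries, also with the longest transcript as the length. Among the 2 scarce members, Fosl1 was above Fosb in every library at 0 h in both genotypes and in LysM-Cre at 1 and 2 h, and Fosb was above Fosl1 in every library at 0.5 h. In FosKO their order differed between libraries at 2 h, and at 1 h with the exon length, whereas with the longest transcript Fosb was above Fosl1 in all 3 libraries at 1 h. The Fos share of the summed level per kb of the family in LysM-Cre was 85.6% ± 0.69 (SD, n = 3) before LPS, then 95.8% ± 0.06, 77.0% ± 1.19 and 70.5% ± 1.93 after 0.5, 1 and 2 h. In libraries labelled FosKO it stayed between 93.9% at 1 h and 96.6% at 2 h. Fosl2 made up 13.0%, 3.62%, 19.4% and 25.2% in LysM-Cre and 3.05% to 5.24% in FosKO. These shares count mRNA of the whole gene, whether or not it encodes a FOS protein.

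**Figure D4:**
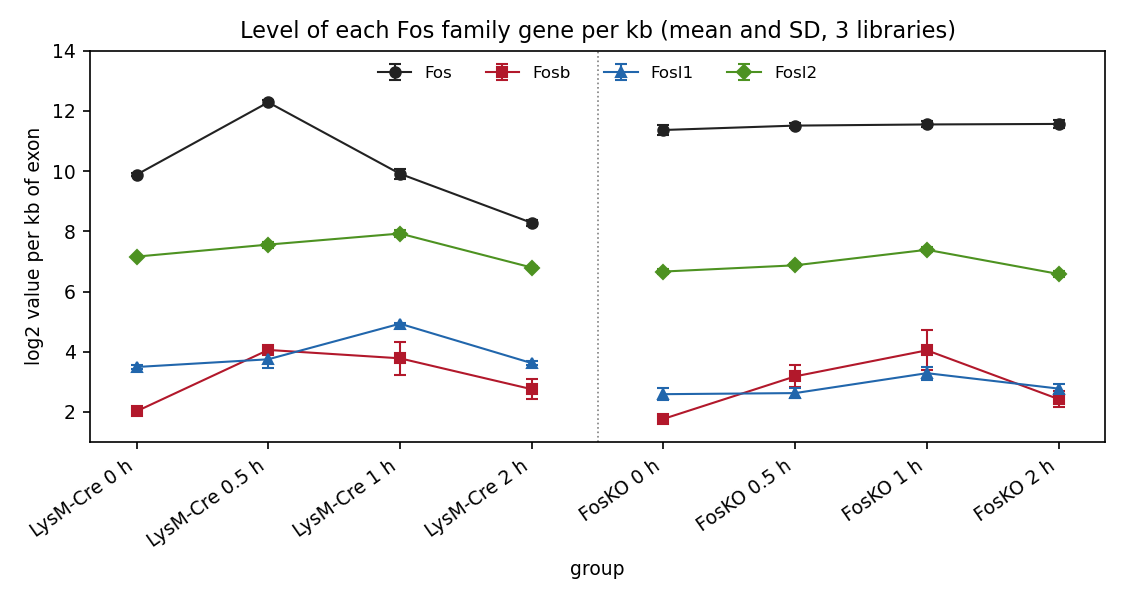
Log2 value per kb of exon (y axis, mean with SD over 3 libraries) of the 4 members in each of the 8 groups (x axis). Fos lay above Fosl2 and Fosl2 above Fosb and Fosl1 in every group, with Fos and Fosl2 closest in LysM-Cre at 2 h.

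The genes whose 8 group means followed each member most closely were taken from 2217 protein-coding genes that spanned at least 1 on the log2 scale, as a description. For Fosb these were Id3 (an inhibitor of bHLH factors, Pearson r = 0.965), Egr3 (a zinc finger immediate early factor, 0.956), Phlda1 (0.952), Junb (an AP-1 partner, 0.944) and Nfkbid (a nuclear IkB protein, 0.928). The same 5 genes led when r was taken over the 24 libraries. For Fosl1 they were Fam110a (0.916), Scin (an actin-severing protein, 0.904), Dhrs9 (0.896), Irf4 (a transcription factor of macrophage and lymphocyte differentiation, 0.892) and Tnfsf14 (0.889), of which 4 were kept over libraries. For Fosl2 they were Pdgfb (a growth factor, 0.932), Dpep3 (0.932), Fam83d (0.924), Cdc20 (an activator of the anaphase-promoting complex, 0.913) and Adamts1 (a secreted protease, 0.912), with 4 kept. For Fos the closest gene was mt-Co2 (a mitochondrial subunit of cytochrome c oxidase, 0.905 over groups and 0.462 over libraries), then Plekhg1 (0.812), Tbc1d9 (0.790), Il21r (0.773) and Slc40a1 (the iron exporter, 0.771), with 3 kept. Only 1 of the 2217 genes had r over 0.9 with Fos, against 13 with Fosb.

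AP-1 partners, the JUN, ATF, BATF and JDP2 proteins that can pair with FOS proteins or compete for their sites, formed a list of 11 genes, all tested. In FosKO 6 were called higher and 1 lower at 0 h (35.4% of all genes were called there), then 5 and 1 after 0.5 h (40.9%), 5 and 1 after 1 h (33.9%) and 4 and 1 after 2 h (44.6%, near the share of the list), with medians of 0.14, 0.19, 0.08 and 0.13, where the median over all genes was within 0.02 of 0. Jun, whose protein is the main partner of FOS, was at 9.87, 9.98 and 10.04 in LysM-Cre at 2 h and 10.75, 10.73 and 10.79 in FosKO, with no overlap. It was higher in FosKO by 0.14 (adjusted p = 0.0115), 0.19 (0.000607), 0.57 (1.08e-09) and 0.80 (5.47e-12) at 0, 0.5, 1 and 2 h, although quantile normalisation took away the first pair of these calls. Like Fos, Jun rose at 0.5 h and fell below its 0 h level by 2 h in LysM-Cre (1.12 and -1.53), but unlike Fos it did so in FosKO too (1.18 and -0.86).

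Junb, which in LysM-Cre rose by 2.39, 2.55 and 1.23 at 0.5, 1 and 2 h, rose by 2.16, 2.41 and 1.30 in FosKO, and was called between the genotypes only at 0.5 h (-0.16, adjusted p = 0.0371). Jund was called only at 0 h (-0.15, adjusted p = 0.034). Both calls were lost under several other settings. Jdp2, a repressor of AP-1 whose gene is the next protein-coding one downstream of Fos at 121754 bases, was at 12.34, 12.35 and 12.25 in LysM-Cre at 2 h and 11.64, 11.56 and 11.63 in FosKO. It was higher in FosKO by 0.25 at 0 h (adjusted p = 0.0189) and lower at 1 h (-0.37, adjusted p = 0.001) and 2 h (-0.71, adjusted p = 3.7e-07), and its LPS response was smaller in FosKO (difference -0.61 at 1 h, adjusted p = 0.0039, and -0.95 at 2 h, adjusted p = 4.93e-06). In the high 18S libraries alone the difference at 1 h was -0.26 and was not called.

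Of the other partners, Atf3, a stress-induced repressor, was higher in FosKO by 0.21, 0.19, 0.72 and 0.44 at the 4 times, and Atf4, the factor of the integrated stress response, by 0.51, 0.48, 0.26 and 0.13. Batf2 was higher by 0.72, 1.11, 0.86 and 0.86. Batf, the gene beyond Jdp2 at 209396 bases from Fos, was higher by 0.53, 0.73 and 0.47 at 0, 0.5 and 1 h and differed by 0.01 at 2 h. The call of Atf3 at 0.5 h and the sign of Atf4 at 2 h did not hold under quantile normalisation, nor did the call of Batf at 1 h in the high 18S libraries (0.18). On the other side of Fos, Tmed10 (99043 bases) and Nek9 (134528 bases) were not called at any time, with differences from -0.03 to 0.06. Atf2, Atf7 and Batf3 were not called at any of the 4 times.

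**Figure D5:**
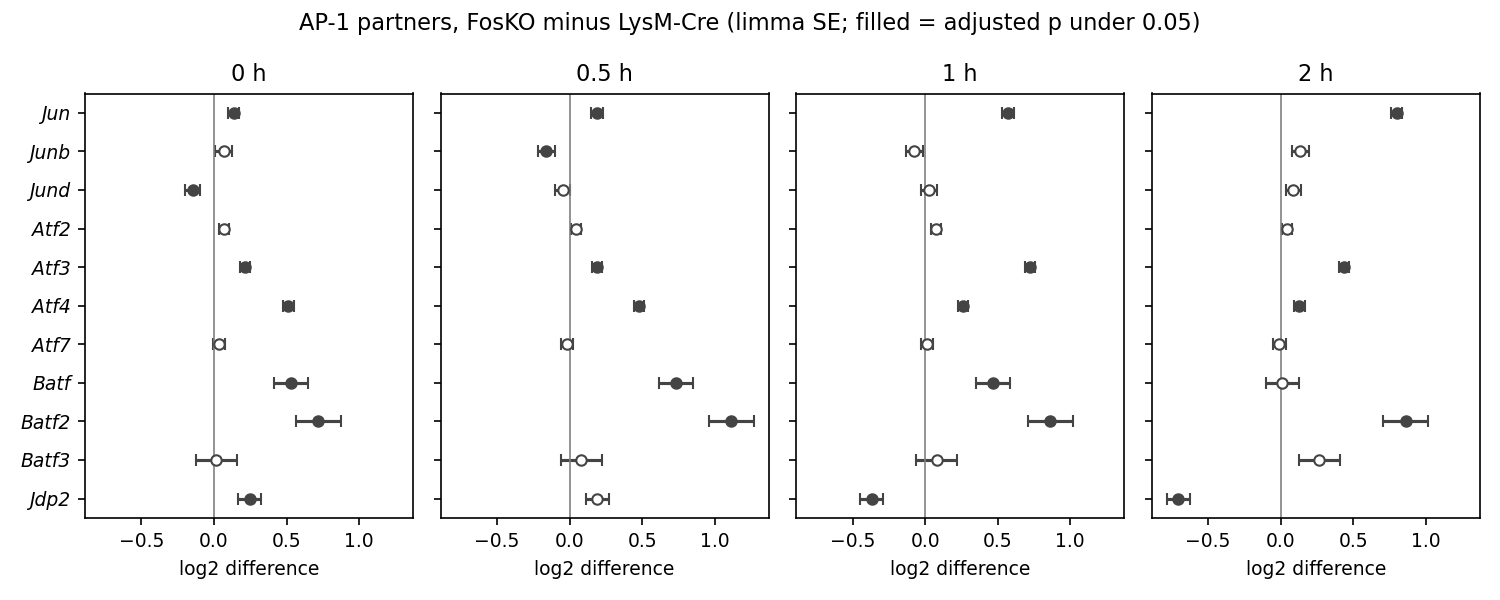
Log2 difference FosKO minus LysM-Cre (x axis) of the 11 AP-1 partners (y axis) at 0, 0.5, 1 and 2 h of LPS, with the limma SE, filled where the adjusted p was under 0.05. Jun moved from 0.14 at 0 h to 0.80 at 2 h and Jdp2 from 0.25 to -0.71, while Junb and Jund stayed between -0.16 and 0.13.

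Kinases and factors upstream of Fos, from TPL-2 (Map3k8) through MAP kinases to ELK, SRF and CREB, formed a list of 10 genes, all tested. At 0, 0.5, 1 and 2 h, 1, 1, 1 and 2 were called higher in FosKO and 2 at each time lower, where 35.4%, 40.9%, 33.9% and 44.6% of all genes were called, with medians between -0.02 and 0.01. None reached the difference of 0.5 that the rule for named genes asks for, and those named here were chosen after their values were seen. Map3k8, the kinase that activates MEK in this pathway, was higher by 0.31, 0.34, 0.50 and 0.27. Elk3, an ETS factor that binds with SRF, was lower (-0.23, -0.30, -0.19 and -0.14). The others were Mapk3 at 0 h (-0.09), Srf at 0.5 h (-0.12), Creb1 at 1 and 2 h (-0.20 and -0.19) and Elk4 at 2 h (0.22). No member of the list differed by more than 0.50. Under quantile normalisation the list had 5, 5 and 8 calls at 0, 0.5 and 2 h in place of 3, 3 and 4, where that setting called 36.2%, 41.7% and 43.3% of all genes. Map2k1, Map2k2 and Elk1 were not called at any time as reported.

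Genes known as AP-1 targets formed a list of 12, all tested and chosen with earlier results of these data known. In FosKO 3 were called higher and 5 lower at 0 h, then 5 and 5 after 0.5 h, 4 and 6 after 1 h and 6 and 5 after 2 h, with medians of -0.04, 0.01, -0.15 and 0.06. Over all genes 35.4%, 40.9%, 33.9% and 44.6% were called at these times. These shares belong to the fit of all libraries, and none is given here for fits with a library left out. Against the 8 calls at 0 h, 5 were left without LysM-Cre 0 h replicate 2 or 3 or FosKO 0 h replicate 3. Against the 10 at 0.5 h, 6 were left without LysM-Cre 0.5 h replicate 2, and 6 in place of 10 were called at both 0.5 and 1 h in the high 18S libraries alone, where 34.3% and 21.5% of all genes were called.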

How the data were processed

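The authors aligned reads with STAR 2.5.2a, counted them per gene with RSEM 1.2.31 on GRCm38 and normalised them with DESeq2 1.16.1, per the labels. The study's methods name RefSeq genes, whereas the table carries Ensembl identifiers. The deposited values are log2 values for 24 libraries and 24273 genes, from -2.22 to 19.39, and look like a regularised log. They hold no counts, so the depth of each library and counting intervals are unknown.

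Genes with a linear value of at least 5 in at least 3 libraries were tested (13901, all 4 members included). All 24 libraries entered 1 limma 3.58.1 fit in R 4.3.3 with 8 group means (16 residual degrees of freedom, variance trend), tested on simulated data. The 19 comparisons were each adjusted over all tested genes (Benjamini-Hochberg), called at an adjusted p under 0.05. With 3 against 3 libraries an exact permutation test cannot pass, so none was used.

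The members and lists were chosen with earlier results of these data known. By rule, named genes were the members, 5 genes of most similar pattern each, Jun, Junb, Jund, partner or upstream genes called with a genotype difference of at least 0.5, and the 2 protein-coding neighbours on each side of Fos; other upstream genes were named after their values were seen. Same-numbered libraries deviated together (every r over 0.1) in FosKO between 0 and 0.5 h (0.134 to 0.269) and between 0.5 and 1 h (0.33 to 0.706), so blocked values stand beside those results where the call changes. Annotation came from GENCODE (99.6% of identifiers found). Alternatives were other normalisation (quantile, and TMM), pseudocount, filters, fits, blocks, 18S sets and left-out libraries. Some members of the marker and upstream lists are not reported here by name.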

Additional observations from a re-analysis of the deposited data

Results flagged for a closer look

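In all, 7 results stood out because a test of the difference between the genotypes passed for the same change. For Fos the LPS response in FosKO minus that in LysM-Cre was -2.26 at 0.5 h and 1.80 at 2 h, and the step differed by 2.41 from 0.5 to 1 h and by 1.65 from 1 to 2 h. For Fosl2 the response at 2 h differed by 0.28 and the step from 1 to 2 h by 0.32. For Fosl1 the step from 1 to 2 h differed by 0.80. These comparisons share the same libraries and are not independent of each other. Of all genes tested, 0.115% and 15% passed for the response at 0.5 and 2 h. For the steps from 0.5 to 1 h and from 1 to 2 h, 1.06% and 11.6% passed. The genotype comparisons of steps were added after the values were seen. The Fosl1 and Fosl2 calls did not hold under every setting, as given for each gene above.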

How the results depend on the processing

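The 76 comparisons of the members were repeated under 11 alternatives and with each library left out. Of 836 values under the alternatives, 819 kept their call or lack of one, as did 1787 of 1824 with 1 library left out. No called value changed sign. Of the values not called in either fit, 12 and 15 changed sign, in 11 of the 76 comparisons, among them Fos in FosKO at 2 h (-0.15 under quantile normalisation) and Fos in LysM-Cre at 1 h (-0.08 under quantile normalisation, -0.05 with the 18S term, -0.09 in the high 18S libraries). Under every setting run, 53 of the 76 kept both call and sign. Quantile normalisation called Fosl2 in FosKO at 2 h (-0.18, adjusted p = 0.0158), turned the sign of Atf4 at 2 h (-0.0031) and of Tmed10 at 2 h (-0.11), and called 5, 5 and 8 of 10 upstream genes at 0, 0.5 and 2 h, with 36.2%, 41.7% and 43.3% of all genes called. TMM called Fosl2 in FosKO at 0.5 h (0.21, adjusted p = 0.0464). Without a filter, Fosb in FosKO at 2 h (0.66, adjusted p = 0.0695) and the Fosl2 difference in response at 2 h (0.28, 0.0593) lost their calls, as they did without the variance trend (0.66, 0.052 and 0.28, 0.0504). A fit of the groups compared lost the Fosb step in FosKO (0.87, 0.138). A term for 18S, and the high 18S libraries alone, called Fos in FosKO at 2 h (0.20, 0.0369 and 0.041), and the high libraries lost the genotype differences in the 1 to 2 h step of Fosl1 (0.82, 0.0664) and Fosl2 (0.25, 0.216) and left 6 AP-1 targets called at 0.5 and at 1 h, with 34.3% and 21.5% of all genes called. The causes were not tested.

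Replicate numbers did not pair the samples between genotypes, where deviations of libraries with the same number correlated over 0.1 in 2 of 12 pairs (-0.527 to 0.314). Within a genotype 12 of 36 pairs did (-0.248 to 0.706), and for 2 of 12 pairs of times, both in FosKO, all 3 did. With the replicate number as a block, Fos in FosKO at 2 h (0.20, adjusted p = 0.0197) and the Fosl1 difference in response at 1 h (-0.74, 0.0241) were called. A block within genotype called both (0.00842 and 0.0138) and Fos in FosKO at 1 h (0.18, 0.0265). It also called Fosl2 in FosKO at 0.5 h (0.21, 0.0141). Under it 5 upstream genes were called at 0.5 h. The share of all genes called under that block is not given here, so this count says nothing about the list. The blocks changed no other call of a member.

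Leaving out 1 library at a time gave 0.11 to 0.27 for Fos in FosKO at 2 h. For Fosb it gave -1.03 to -0.67 between genotypes at 0.5 h, 0.62 to 0.92 for the 2 h response in LysM-Cre, 0.51 to 0.78 for that in FosKO, and 0.54 to 1.199 for the FosKO step. The Fosl1 difference in response at 1 h ran from -0.81 to -0.62. Fosl2 ran from -0.25 to -0.16 between genotypes at 2 h, 0.17 to 0.25 for FosKO at 0.5 h, 0.25 to 0.34 for the difference in response at 2 h and 0.26 to 0.38 for that in the 1 to 2 h step. AP-1 targets called ran from 5 to 10 at 0 h and 6 to 10 at 0.5 h. The share of all genes called in those fits is not given here, so these ranges say nothing about the list. With low 18S libraries removed, 1 LysM-Cre library is left at 1 h and is assumed to vary like the others. The depth of each library is unknown, a limit for the low values of Fosl1 and Fosb.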
